A study of Homo sapiens with 6 samples.

Results

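The lysyl oxidase family comprises LOX, LOXL1, LOXL2, LOXL3 and LOXL4, and the occupancy of ZNF469 at these 5 genes was measured by CUT&RUN in LX-2 cells. In CUT&RUN, a nuclease tethered to an antibody releases the DNA next to the bound protein for sequencing. A region was counted for a gene when at least 1 bp of it lay in the gene body or within 50 kb on either side, and 30 of the 19108 regions in the list for full-length ZNF469 met this rule. None of the 54 regions in the list for dZF-ZNF469 did.

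LX-2 is an immortalized human line made from hepatic stellate cells, which produce the collagen of the fibrotic liver. All cells carried a Geneticin-selected piggyBac transgene under a doxycycline-inducible promoter and were given doxycycline at 1 ug/mL for 24 h, in medium containing an ascorbic acid derivative. One group of 3 libraries expressed full-length ZNF469 (clone3.4) and the other group of 3 expressed dZF-ZNF469 (clone3.1). In the paper's dZF construct, most but not all of the zinc fingers are deleted. Since each line carried a different construct, construct and line cannot be told apart, and the labels do not say whether a clone is one of cells or of the plasmid. The authors pooled the 3 libraries of each group into 1 peak list, so no value per library, no replicate error and no test between groups could be given. The lists hold no expression values, so the stellate identity of the cells could not be checked against markers.

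Lysyl oxidases are secreted, copper-dependent amine oxidases. They convert lysines and hydroxylysines of collagen and elastin into aldehydes, which then condense into the cross-links that make fibers insoluble and stiff. LOX is secreted as a proenzyme that the procollagen C-proteinase BMP1 cleaves, LOXL1 is known for its part in elastic fiber assembly, and LOXL2, LOXL3 and LOXL4 carry scavenger receptor cysteine-rich domains in front of the shared catalytic domain. In fibrotic liver, cross-linked collagen is more resistant to degradation.

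The sequences at 4 of the summits are given first, since they show what DNA lay under the signal at LOX, LOXL1 and LOXL4. A summit is the base of highest coverage in a region, and each stretch runs 50 bp to either side of it on the plus strand of hg38. Capitals mark matches to the RUNX core (TGTGGT) on either strand. The AP-1 site (TGAGTCA) and the TEAD core (GGAATG) were searched in the same way and did not occur in these 4 stretches. The first lies just upstream of the LOX start (chr5:122078493-122078593), the second 11.6 kb upstream of it (chr5:122089844-122089944). The third lies in intron 1 of LOXL1 and carried the highest pileup of the family (chr15:73941193-73941293). The fourth lies in an intron of R3HCC1L, the gene downstream of LOXL4 (chr10:98224697-98224797).
LOX start region: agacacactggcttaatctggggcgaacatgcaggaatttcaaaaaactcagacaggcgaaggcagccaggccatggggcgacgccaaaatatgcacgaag
LOX upstream region: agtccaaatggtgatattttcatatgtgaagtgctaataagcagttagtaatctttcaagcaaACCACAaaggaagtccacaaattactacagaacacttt
LOXL1 intron region: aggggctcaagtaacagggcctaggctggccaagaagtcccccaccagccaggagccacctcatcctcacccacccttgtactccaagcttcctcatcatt
LOXL4 flank region: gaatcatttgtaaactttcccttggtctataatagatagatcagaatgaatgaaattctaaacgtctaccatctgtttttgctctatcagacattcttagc

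AP-1 sites did occur in these genes' regions, but farther from the summit. The 3 stretches of 27 bp below are shown because they are the only AP-1 sites in any region of LOX, LOXL1, LOXL3 or LOXL4. Capitals mark the site. They lay 53 bp from the summit of the region in the last exon of LOX (chr5:122064065-122064091), 98 bp from the summit of the upstream LOX region (chr5:122089783-122089809), and 127 bp from the summit of the region downstream of LOXL1 (chr15:73956957-73956983).
LOX last exon: tattgtaaacTGACTCAtaaactctga
LOX upstream: caaaatgctgTGACTCAgtttgggaga
LOXL1 downstream: tcccccagacTGAGTCAtgcaggcggt

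All 5 genes had at least 1 full-length region within 50 kb, but the counts were uneven. LOXL2 had 14, LOXL1 had 6, LOX and LOXL4 had 4 each, and LOXL3 had 2. Of 20033 protein-coding genes, 65.1% had at least 1 region within 50 kb, so a region in this interval is the common case and the presence of 1 beside each member is not particular to the family. The median protein-coding gene had 1 such region.

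Counting the gene bodies alone separated the members further. LOXL2 had 13 regions in its body, LOX 3 and LOXL1 2, whereas LOXL3 and LOXL4 had none. Among all protein-coding genes, 33.6% had at least 1 region in the body. Within 3 kb of the canonical start, only LOX had any region, with 2, against 21.7% of protein-coding genes. Of the 30 regions, 18 lay in a body and 12 in a flank.

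**Figure D1:**
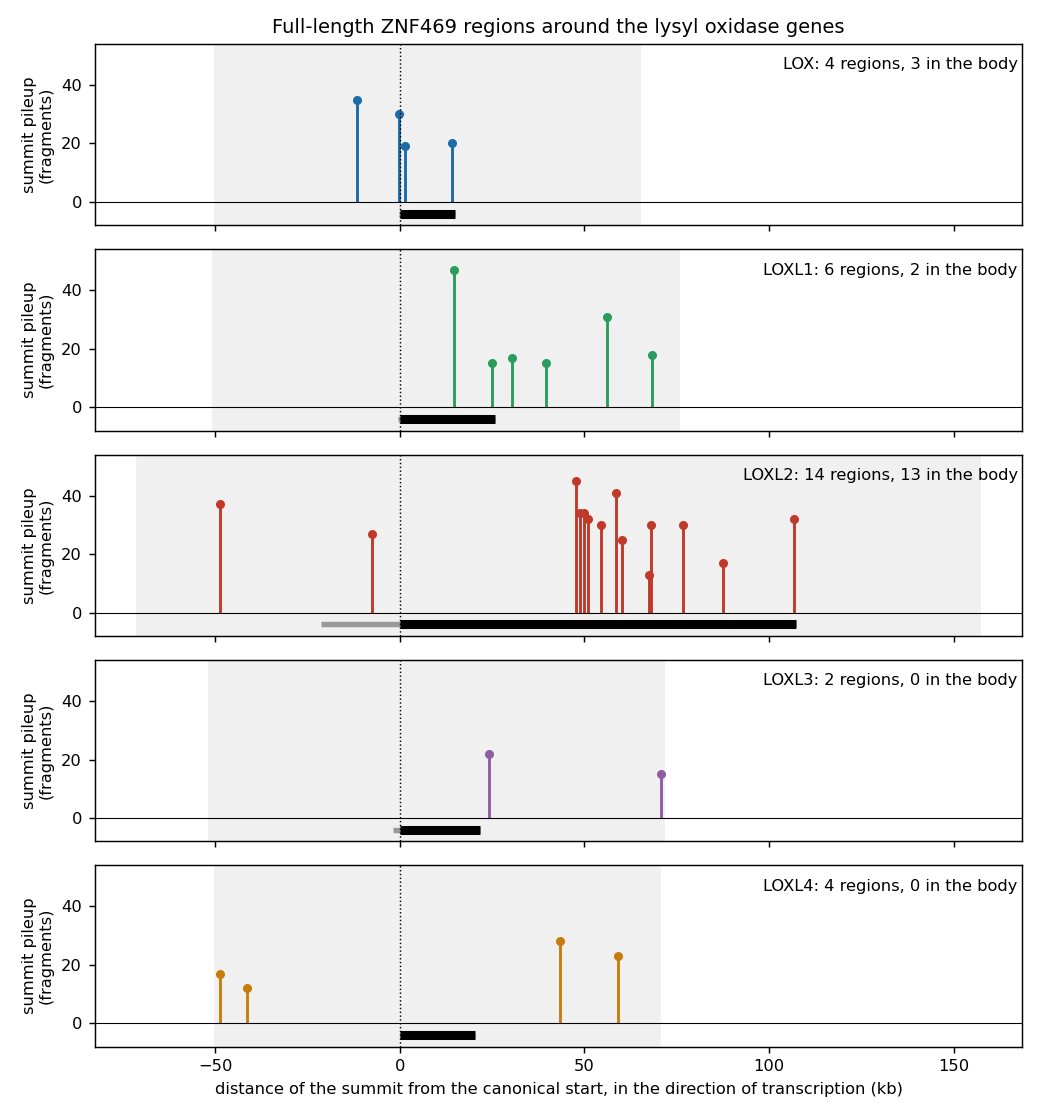
Summit pileup (fragments in the pooled libraries, vertical axis) of each full-length region against the distance of its summit from the canonical start in the direction of transcription (kb, horizontal axis), with 1 panel per gene. LOX was the only gene with regions near its start, LOXL2 carried 12 of its 14 regions from 47.8 kb onward inside the gene and the other two before its canonical start, and the bodies of LOXL3 and LOXL4 held none.

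The genes differ in length, so the counts were also set against the bases available. LOXL2 spans 128.4 kb, LOXL1 26.1 kb, LOXL3 23.4 kb, LOXL4 20.5 kb and LOX 15.2 kb. Per 100 kb of gene body, LOX had the highest density with 19.7 regions, followed by LOXL2 with 10.1 and LOXL1 with 7.65, and all protein-coding bodies together had 0.911. Counted by summit, the body of LOX held 2 regions in place of 3, since its start region peaked upstream of the gene. The counts of LOXL2 (13) and LOXL1 (2) stayed the same. LOXL2 thus led by number and LOX by density over all records, but the order by density changed when the list was restricted. In the upper 25% of the list by fold, the densities were 0 for LOX, 3.82 for LOXL1 and 3.11 for LOXL2. In the upper 25% by pileup they were 6.57, 3.82 and 7.01, so LOX led in neither. These densities rest on 0, 1 and 4 body regions by fold and on 1, 1 and 9 by pileup. Such small counts do not settle the order of the genes. The density over all protein-coding bodies is not given for the restricted lists. Regions covered 6.15% of the LOX body, 4.34% of the LOXL2 body and 2.96% of the LOXL1 body.

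Genes of like length gave a second frame for these counts. Of 3527 protein-coding genes between 15 and 30 kb, the class of the other 4 members, 28.4% had a region in the body and 40 had at least as many as LOX. The empty bodies of LOXL3 and LOXL4 were thus the more common state in that class. Of 1635 genes between 100 and 160 kb, 54.4% had a region in the body, with a median of 1. The highest count in that class was 13, reached by LOXL2 and by VMP1, an autophagy gene named after its count was seen. Over all protein-coding genes, 30 had at least as many body regions as LOXL2 (0.15%).

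**Figure D2:**
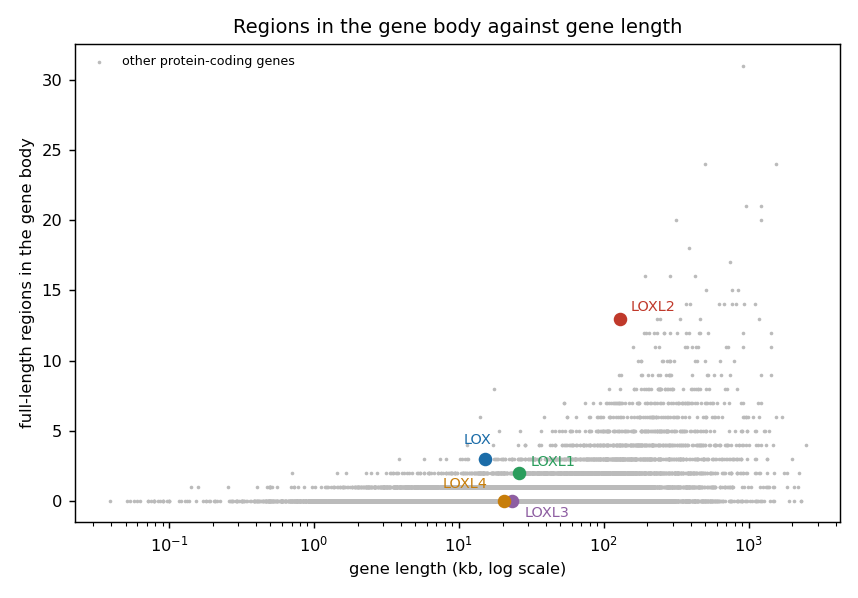
Number of full-length regions in the gene body (vertical axis) against gene length (kb, log scale) for all protein-coding genes (gray) and the 5 family members (coloured and named). LOXL2 lies at the top of the genes of its length with 13 regions, LOX lies above most short genes with 3, and LOXL3 and LOXL4 lie at 0.

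The strength of a region is given as the pileup at its summit, a whole number of fragments in the pool of 3 libraries, beside the local background, the number of fragments that the peak caller expected there. Both were recovered from the deposited fold enrichment and −log10 p-value. Over the 30 regions the pileup ran from 12 to 47 with a median of 27.5, and 19 exceeded 20, the median of all full-length regions. Their background ran from 0.896 to 6.79 fragments with a median of 2.06, against 1.82 in the whole list. The fold enrichment, (pileup + 1)/(background + 1), had a median of 7.60, against 7.36. Pileup and background were thus both somewhat above the list's medians, and the fold was close to its median. Widths ran from 160 to 804 bp with a median of 387.5 bp, against 440 bp in the list. The stretches of 50 bp to either side of the summits had a median GC content of 50.0%, against 46.5%, with medians of 64.4% at LOXL3, 60.4% at LOXL1, 48.5% at LOXL2, 45.05% at LOX and 43.6% at LOXL4. The limits in parentheses beside a pileup are 95% limits of the Poisson distribution (exact) and hold only the error of counting.

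**Figure D3:**
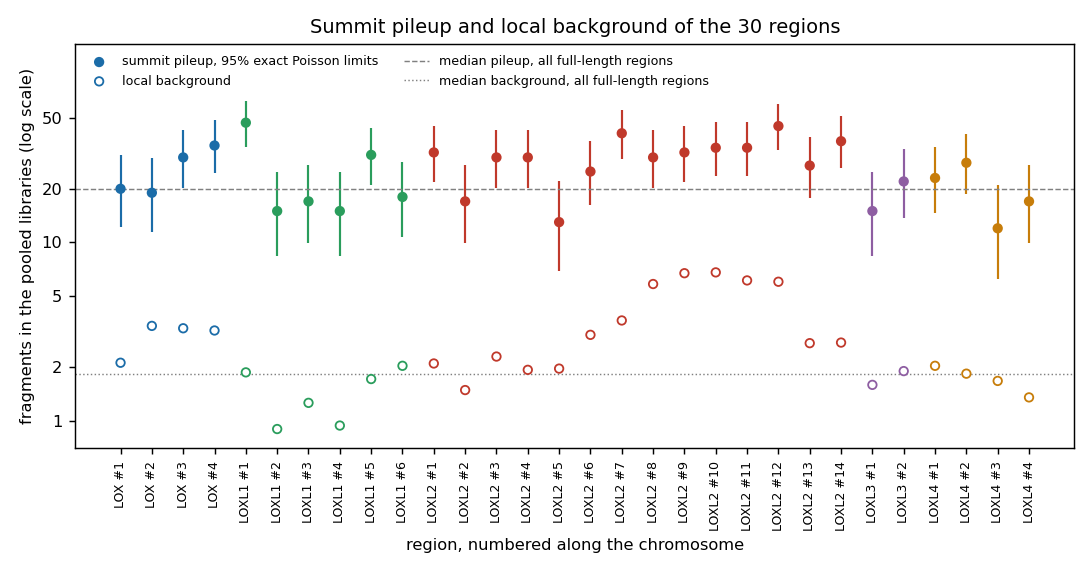
Summit pileup (filled points, with exact 95% Poisson limits) and local background (open points) of the 30 regions, in fragments on a log scale, with the medians of all full-length regions as lines. The highest pileup, 47, belongs to LOXL1 #1, and the highest backgrounds, 5.84 to 6.79, belong to LOXL2 #8 to #12.

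LOX (ENSG00000113083.15, chr5:122063195-122078413, minus strand) had regions at both ends of the gene. The start region (chr5:122078209-122078700) had a pileup of 30 fragments (20.2 to 42.8) over a background of 3.30, and its summit lay 0.284 kb upstream of the canonical start. It reached 51 bp into exon 1, all of it noncoding. The neighbouring region (chr5:122076693-122077263) had its summit 1.48 kb inside the gene and included 109 coding bp of exon 2. It also overlapped further LOX promoters of the RefSeq annotation (chr5:122077125-122077424 and chr5:122077174-122077473). Its pileup was 19 (11.4 to 29.7) over a background of 3.4, and the limits of these pileups overlapped.

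The remaining LOX regions lay at the 3′ end and upstream. The 3′ region (chr5:122063944-122064103, 160 bp) lay wholly in the untranslated part of exon 7, where the span of the gene SRFBP1 also runs, with a pileup of 20 (12.2 to 30.9) over 2.11. The upstream region (chr5:122089583-122090106) lay between genes and had the highest LOX pileup, 35 (24.4 to 48.7) over 3.20. The 4 folds ran from 4.55 at exon 2 to 8.57 upstream. The 4 pileups ran from 19 to 35, and their limits overlapped. Overlap of separate limits does not decide whether 2 pileups differ, and a ranking of the LOX regions was not tested.

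LOXL1 (ENSG00000129038.16, chr15:73925989-73952137, plus strand) held the strongest region of the family. This region in intron 1 (chr15:73940811-73941375), 14.8 kb after the start, had a pileup of 47 fragments (34.5 to 62.5) over a background of 1.86. Its fold of 16.8 exceeded that of 99.9% of the full-length list, and its pileup that of 97.1%. The other body region lay in intron 6 (chr15:73951282-73951489) with a pileup of 15 (8.4 to 24.7), and its limits did not reach those of the intron 1 region. The start of LOXL1 itself had no region within 3 kb.

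The 4 flank regions of LOXL1 all lay downstream of the gene. Those at 30.4 and 39.5 kb from the start lay between genes, with pileups of 17 (9.9 to 27.2) and 15 (8.4 to 24.7). The next, at 56.3 kb, overlapped an exon of STOML1 with a pileup of 31 (21.1 to 44). The last lay 0.034 kb from the start of PML, which encodes the scaffold protein of PML nuclear bodies, with a pileup of 18 (10.7 to 28.5). These last 2 regions fall on other genes, so their count for LOXL1 rests on the 50 kb rule alone.

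LOXL2 (ENSG00000134013.16, chr8:23296897-23425328, minus strand) contributed 14 of the 30 regions. Their pileups ran from 13 to 45 with a median of 31, their backgrounds from 1.48 to 6.79 with a median of 2.88, and their folds from 4.28 to 10.7. The canonical transcript starts at base 23404120, and the first 47.8 kb after this start held no region. Of the 14, 12 lay between there and the end of the gene, 1 lay 7.45 kb upstream of the canonical start in an intron of longer LOXL2 transcripts, and 1 lay 48.7 kb upstream. Regions are numbered along the chromosome, so that number 1 is at the 3′ end of the gene.

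Of the LOXL2 regions, 10 (numbers 3 to 12) lay within 10 kb of the next and formed a run over introns 6 to 3 (chr8:23326986-23356644, 29.7 kb). This run was delimited, and COL1A1 below named, after the values were seen. Regions covered 14.3% of it, and gaps between neighbouring summits ran from 0.439 to 8.57 kb. At only 2 places in the genome did the full-length list hold 10 consecutive regions in so short a span, this one and chr17:50173540-50200840 at COL1A1, the gene for the alpha 1 chain of type I collagen. The next region upstream of the run was 55.3 kb away.

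Along the run, pileup and background both differed, and background was highest in its last 5 regions. Its first 4 regions, numbers 3 to 6, had pileups of 30, 30, 13 and 25 fragments over backgrounds of 2.29, 1.93, 1.96 and 3.03. Number 7 (chr8:23345210-23345763) had a pileup of 41 (29.4 to 55.6) over 3.65. The last 5 regions, numbers 8 to 12, were packed into 7.06 kb, with pileups of 30, 32, 34, 34 and 45 over backgrounds of 5.84, 6.72, 6.79, 6.12 and 6.01. These 5 backgrounds exceeded those of 97.9 to 98.8% of the list. The 5 folds accordingly were low, from 4.28 to 6.56, although the pileups were all above the list's median.

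The LOXL2 regions outside the run had lower backgrounds in the median. In the run, the median pileup was 31, the median background 4.74 and the median fold 5.69. In the other 4 regions, the median pileup was 29.5, the median background 2.41 and the median fold 8.84. The pileups were thus alike in level, whereas the run stood below the isolated regions by median fold.

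**Figure D4:**
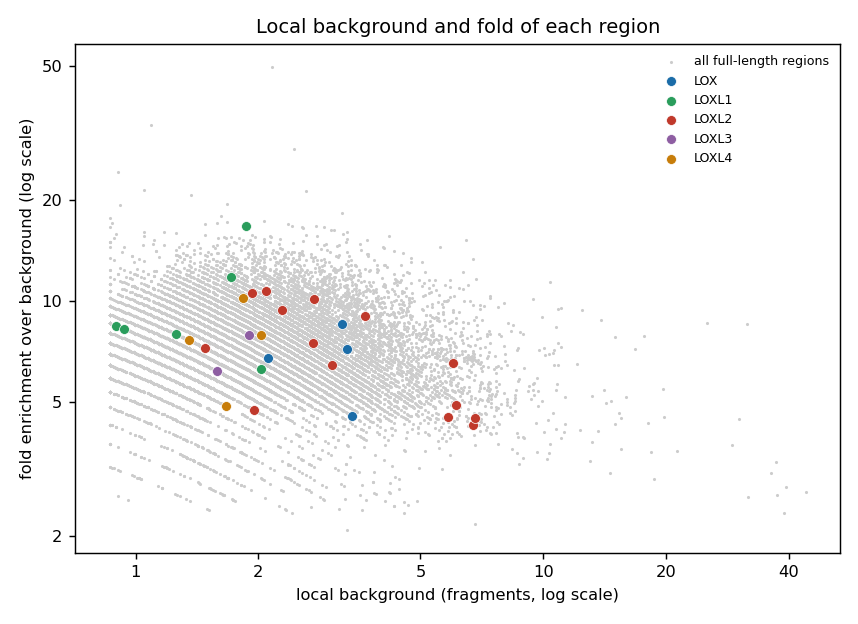
Fold enrichment (log scale) against local background (fragments, log scale) for all full-length regions (gray) and the regions of the 5 genes (coloured). LOXL1 holds the highest fold of the family, 16.8, and LOXL2 regions with backgrounds above 5.8 have folds of 4.28 to 6.56.

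The isolated LOXL2 regions were spread from the 3′ end of the gene to its far upstream flank. Number 1 (chr8:23297133-23297561) lay wholly in the untranslated part of exon 14 with a pileup of 32 (21.9 to 45.2) over 2.09, and its fold of 10.7 was the highest of the gene. Number 2, in intron 9 of the canonical transcript, also overlapped an exon of another LOXL2 transcript and had a pileup of 17 (9.9 to 27.2). Number 13 (chr8:23411342-23411782), in the first part of the gene span, had 27 (17.8 to 39.3) and also lay within the gene ENTPD4. Number 14 (chr8:23452529-23453067) lay in ENTPD4, an intracellular nucleotidase, 4.8 kb from the start of that gene, with a pileup of 37 (26.1 to 51.0).

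The run also overlapped a noncoding gene. Of its 10 regions, 9 lay over LOXL2-AS1, an antisense RNA gene transcribed from the plus strand of the same introns (chr8:23336171-23366125). The summit of number 4 lay 61 bp from the LOXL2-AS1 start. CUT&RUN does not mark strand, so the regions cannot be assigned to LOXL2 or to LOXL2-AS1 by position.

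LOXL3 (ENSG00000115318.12, chr2:74532258-74555690, minus strand) had no region in its body. Both flank regions lay downstream, at the starts of other genes. One (chr2:74482837-74483347) lay 0.053 kb from the start of TTC31 with a pileup of 15 (8.4 to 24.7) over 1.59, and the other (chr2:74529680-74530076) 0.094 kb from the start of AUP1, which acts in the degradation of misfolded proteins and in lipid droplets, with a pileup of 22 (13.8 to 33.3) over 1.90. The latter region overlapped exons of both AUP1 and HTRA2, a mitochondrial protease gene, and its summit lay in an exon of HTRA2. As many regions or more within 50 kb were found for 42.3% of protein-coding genes.

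LOXL4 (ENSG00000138131.4, chr10:98247690-98268194, minus strand) had no region in its body either, and its nearest summit lay 41.4 kb from its start. The 2 downstream regions overlapped R3HCC1L, with pileups of 23 (14.6 to 34.5) in an exon and 28 (18.6 to 40.5) in the intron printed above. The 2 upstream regions lay between genes, at 41.4 and 48.7 kb, with pileups of 12 (6.2 to 21.0) and 17 (9.9 to 27.2). The pileup of 12 was the lowest of the family. As many regions as for LOXL4 or more were found for 15.4% of protein-coding genes, the same share as for LOX, so the count within 50 kb did not separate a gene with regions at its start from a gene without any in its body.

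AP-1 is the dimeric factor of FOS and JUN proteins. Its site lay within 50 bp of the summit in 3 of the 30 regions, or 10% (exact binomial 95% interval 2.11 to 26.5%, counting error only), against 19.3% of all full-length regions. The family's share was thus not above the list's, and its interval included it. All 3 regions belonged to LOXL2. They were number 1 in exon 14 with the site 17 bp from the summit, number 8 in the run with the site 46 bp away, and number 13 upstream of the canonical start with the site 45 bp away. Outside LOXL2, 0 of 16 regions had the site in this window, and the exact upper limit of 20.6% lies above the list's share.

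Searching the whole record raised the family's count to 9 of 30 (30%, interval 14.7 to 49.4%), against 44.1% of all regions. The records that gained a site were the 3 whose 27 bp stretches are printed above and LOXL2 numbers 3, 7 and 10. Within the LOXL2 run, 1 of 10 summits had the site, and outside it 2 of 4. Most regions of the run therefore had no AP-1 site at the summit.

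Shares of AP-1 sites differ with position, since fewer regions near gene starts carry one. Beyond 3 kb from any protein-coding start, 3 of 25 family regions (12.0%, interval 2.55 to 31.2%) had the site at the summit, against 22.7% of the list. Nearer to a start, 0 of 5 had it (exact upper limit 52.2%), against 6.64%. Both intervals included the list's value, so within 50 bp of the summit a difference from the list was not detectable with so few regions. Within 25 bp, the share over all 30 family regions was 3.33% (interval 0.0844 to 17.2%), against 9.95% of the list. Within 100 bp, 4 of the 30 had the site (13.3%, interval 3.76 to 30.7%), against 32.3%. The interval at 100 bp thus lay below the list's share. It holds counting error only, and distance to a gene start was not taken into account.

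TEAD proteins are the DNA-binding partners of YAP and TAZ, and RUNX proteins often occupy DNA near AP-1. The TEAD core lay within 50 bp of the summit in 2 regions (6.67%), against 11.7% of the list. The RUNX core did so in 6 regions (20%, interval 7.71 to 38.6%), against 9.45% of the list, and this interval included the list's share. RUNX matches were spread over LOX (2 of 4), LOXL1 (2 of 6), LOXL2 (1 of 14) and LOXL3 (1 of 2). Without LOXL2, a split chosen after the data were seen, 5 of 16 regions had a match (31.3%, interval 11.0 to 58.7%). That interval lay above the list's share, and holds counting error only. Leaving out LOXL2, with 1 match in 14, itself raised the share, so no conclusion is drawn from this split. A match describes the letters of a sequence and is not evidence of a bound factor.

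No dZF region lay within 50 kb of any member, and widening the flank to 100 kb added none. Over all protein-coding genes, 0.21% had a dZF region within 50 kb, so a count of 0 is the common case for a protein-coding gene. The nearest dZF regions were 6.09 Mb from LOXL1, 11.7 Mb from LOXL4, 12.9 Mb from LOXL3, 14.3 Mb from LOXL2 and 104.5 Mb from LOX.

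Backgrounds began at 0.865 fragments among full-length regions and at 0.625 among dZF regions, which gives a ratio of 1.38. When the full-length pileups and backgrounds were divided by this ratio, which matches the lowest backgrounds only, 26 of the 30 regions exceeded a −log10 p-value of 7.63, the smallest of any dZF region. Over the whole list, 85.3% did. The 4 that fell under it were the exon 2 region of LOX, LOXL2 number 5, the TTC31 region of LOXL3 and the weakest region of LOXL4. All 6 regions of LOXL1 and 13 of the 14 of LOXL2 stayed above it. The count depends on the ratio. The median backgrounds were 1.82 and 0.792 fragments. With their ratio of 2.3, tried after the data were seen, 13 of the 30 exceeded that value. The share of the whole list at this ratio is not given here. The fall from 26 to 13 therefore cannot be read as particular to the family. The depths of the pools themselves are not known here.

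The enzymes and matrix proteins that act with lysyl oxidases were described as a comparison. Of 24 such genes, 12 carried full-length regions in the body (50%, against 33.6% of protein-coding genes), 20 had at least 1 within 50 kb (against 65.1%), and none had a dZF region within 50 kb (against 0.21%). P4HA2, a subunit of collagen prolyl 4-hydroxylase, had 5 body regions with pileups of 17 to 32. PLOD2, the lysyl hydroxylase of collagen telopeptides, had 4 with pileups of 13 to 35. PLOD2 is about as long as LOXL2, at 128.6 kb, and regions covered 1.22% of it, against 4.34% of LOXL2.

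The other leading partners had 2 body regions each. They were ATOX1, a copper chaperone (pileups 33 and 35), BMP1, the proteinase that processes procollagen and LOX (29 and 34), and FN1, which encodes fibronectin (17 and 28). SERPINH1, the collagen chaperone HSP47, also had 2 (30 and 31), and is named after its values were seen, as are the next 6. P4HA3, TGM2, PLOD3, P4HB, P3H1 and EFEMP2 had 1 each. No region was found in the bodies of PLOD1, P4HA1, FKBP10, TLL1, TLL2, ATP7A, SLC31A1, FBLN5, ELN, POSTN, THBS1 or FMOD. None of the 24 partners had as many body regions as LOXL2.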

How the data were processed

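CUT&RUN libraries of LX-2 cells were grouped by the construct in their titles, 3 per group. The submitters' processing notes name bcl2fastq, Bowtie2 2.3.4.3, MACS2 2.2.5, R 4.2.1 and deepTools 3.5.1, without roles, and hg38. The authors deposited 1 peak list per group, filtered on the irreproducible discovery rate over the 3 libraries. Each deposited record has a score scaled from that rate, a fold enrichment (a ratio to local background), a −log10 p-value and a summit, and a −log10 q-value that was not used. Total reads per library were not analysed here, so depth is known only as pileups.

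For each record, the whole-number pileup and background that return the deposited fold and −log10 p-value were found with Python 3.11.15 and scipy 1.17.1 (largest miss 6.9e-05 in −log10 p). The procedure was first tested on simulated records. Genes, canonical transcripts and exons followed GENCODE version 44, counted from 1, and motifs were searched on both strands of hg38. Records overlapping a gene body extended by 50 kb by at least 1 bp were counted. Named genes were the 5 members, genes at their flank regions, and the leading and empty genes of a list of 24 partners. Members and lists were chosen with earlier results of these data known. Comparisons are counts and shares beside the same measure over all genes or regions, without tests. Sequences were read from hg38, and none is printed for LOXL2.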

Additional observations from a re-analysis of the deposited data

How the results depend on the processing

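No paired analysis was possible because the deposited lists are pools of 3 libraries without values for single ones, and leaving out a replicate was not run for the same reason. Of 91 alternatives over 21 results, 56 kept the value within the limits set for them and 35 moved it. The order of the genes by density also changed. Restricting the list to its upper 50% by fold left 1 region within 50 kb of LOX, 5 of LOXL1 and 6 of LOXL2. It left 1 of LOXL3 and 3 of LOXL4, and 1.96% of the LOXL2 body covered. The upper 25% by fold left 0 for LOX, 2 for LOXL1, 5 for LOXL2, 0 for LOXL3 and 1 for LOXL4, and in the bodies 0, 1 and 4 for LOX, LOXL1 and LOXL2, with 1.61% of LOXL2 covered. The upper 25% by pileup left 2, 2, 0 and 1 for LOX, LOXL1, LOXL3 and LOXL4, and 1 in the body of LOX and 1 in that of LOXL1. By construction these keep fewer records. Densities per 100 kb of body in the restricted lists were tried after seeing the data. The upper 50% by fold gave 0 for LOX, 7.65 for LOXL1 and 3.89 for LOXL2, so LOXL1 led there. These densities rest on 0, 2 and 5 body regions. The upper 25% by fold gave 0 for LOX, 3.82 for LOXL1 and 3.11 for LOXL2. The upper 25% by pileup gave 6.57 for LOX, 3.82 for LOXL1 and 7.01 for LOXL2. Scaling to the dZF list by the ratio of median backgrounds, also added later, left 13 regions above its lowest −log10 p-value in place of 26. The whole list's share at that ratio is not given, so the fall cannot be read as particular to the family. LOXL2 had the most regions within 50 kb under each of these restrictions. A flank of 10 kb left 3 for LOXL1, 1 for LOXL3 and 0 for LOXL4, and a flank of 100 kb gave 10 for LOX, 6 for LOXL3 and 8 for LOXL4. The AP-1 share was 30% over whole records and 0% without LOXL2, the latter chosen after seeing the data. Pooled pileups of 12 to 47 carry wide counting limits, and a ranking of the regions of a gene was not tested.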
